A study of Rattus norvegicus with 40 samples.

Results

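Aif1, Itgam, Ptprc and Csf1r are genes by which microglia and macrophages are recognised in nervous tissue, and their transcripts were measured in CD11b-selected cells of young adult rats whose mothers had breathed intermittently hypoxic air during pregnancy. The 4 genes were taken by their Ensembl identifiers, ENSRNOG00000000853 for Aif1, ENSRNOG00000019728 for Itgam, ENSRNOG00000000655 for Ptprc and ENSRNOG00000018414 for Csf1r, and all 4 were among the 32883 gene IDs of the count table. The pairing of these IDs with symbols comes from the definition of the gene set. The count table holds IDs only, and 0 of 47357 rows of the RefSeq gene table used here carry an Ensembl ID, so that no other symbol could be attached to a row.

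Microglia are the resident macrophages of the brain and spinal cord, and they depend on signalling through the receptor encoded by Csf1r for their survival. Itgam encodes CD11b, the alpha chain of the integrin complement receptor that takes up opsonised material and that the antibody used for isolation binds. Ptprc encodes CD45, a receptor tyrosine phosphatase of all nucleated blood cells that resting microglia carry at lower levels than blood-derived macrophages do. Aif1 encodes IBA1, an actin-bundling protein that binds calcium and takes part in membrane ruffling and phagocytosis, and antibodies to it are widely used to stain microglia.

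The study asked how exposure before birth, sex and region shape the microglial transcriptome. Sprague Dawley dams were kept from gestational day 10 to day 21 under intermittent hypoxia, alternating between 10.5% and 21% oxygen, or under intermittent normoxia at 21% throughout, for 8 hours a day with 15 cycles an hour. Their offspring were born and raised in ordinary housing, and at 8 weeks of age microglia were isolated with magnetic beads from the medulla and from cervical segments C3 to C6 of the spinal cord. Per the labels, a male and a female of each litter were used, from 5 paired litters, and each of the 20 animals gave both regions. The 8 groups of 5 libraries were female hypoxia, female normoxia, male hypoxia and male normoxia in the cervical cord and in the medulla. All animals were of 1 strain with no genetic modification in the labels, the exposure was of the mother and not of the offspring directly, and the labels do not say which litter a library came from. Selection on CD11b takes any myeloid cell that carries it, and markers of other cell types could not be looked up for lack of symbols. The purity of the isolations was therefore not checked.

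The promoters of Itgam, Csf1r and Ptprc are shown, and the promoter set used here held no entry for Aif1. They are RefSeq sequences of the GRCr8 assembly, 250 bases before to 50 after the annotated start, on the strand of the gene. The reads were aligned to rn6. In the Csf1r stretch the 50 bases after this start open with the letters atg and hold no stop in that frame. The annotated start of Csf1r may therefore be that of translation, and the letters before it may include transcribed sequence. Capitals mark GAGGAA or its reverse complement TTCCTC, the purine-rich core that the myeloid transcription factor PU.1 is known to bind in human and mouse cells.
Itgam promoter, GRCr8 chr1:192089342-192089641 (+ strand): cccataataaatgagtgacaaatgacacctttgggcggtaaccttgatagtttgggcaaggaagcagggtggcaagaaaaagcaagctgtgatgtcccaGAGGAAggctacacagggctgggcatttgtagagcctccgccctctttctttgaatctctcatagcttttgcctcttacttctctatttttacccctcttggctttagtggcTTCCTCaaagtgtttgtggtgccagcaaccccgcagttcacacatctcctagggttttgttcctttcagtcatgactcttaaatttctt
Csf1r promoter, GRCr8 chr18:56834129-56834428 (+ strand): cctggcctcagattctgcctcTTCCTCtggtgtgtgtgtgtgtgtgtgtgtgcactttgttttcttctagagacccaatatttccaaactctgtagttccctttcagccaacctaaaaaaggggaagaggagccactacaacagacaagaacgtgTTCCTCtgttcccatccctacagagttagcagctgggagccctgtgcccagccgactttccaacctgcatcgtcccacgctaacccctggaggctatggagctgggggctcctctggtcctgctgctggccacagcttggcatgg
Ptprc promoter, GRCr8 chr13:52259697-52259996 (- strand): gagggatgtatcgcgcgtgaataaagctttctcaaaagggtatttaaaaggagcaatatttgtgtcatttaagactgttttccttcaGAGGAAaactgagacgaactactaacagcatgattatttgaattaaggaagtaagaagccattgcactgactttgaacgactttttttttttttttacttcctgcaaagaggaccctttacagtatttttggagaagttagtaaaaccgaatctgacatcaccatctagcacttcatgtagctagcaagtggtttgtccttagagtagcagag

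Itgam and Csf1r each had 2 matches and Ptprc had 1. Among all 33469 promoters of this length in the table, 9239, or 27.6%, held the letters on either strand. A match is a description of the letters and not evidence of binding.

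Library totals ran from 6061346 to 24039411 reads assigned to genes, and 13379 to 18339 gene IDs had at least 1 read. Levels are given as CPM, the count scaled to a library of 1000000 such reads, and are compared between libraries, never between genes, since no gene lengths were used. The shallowest library, female hypoxia medulla replicate 3, stood apart. It held the fewest detected IDs and had the lowest level of 3 of the 4 genes and the highest of the other one, and the main results that touch it are also given without it. In the female hypoxia cord group, totals were 13570283 to 20650051 reads and the most abundant gene, ENSRNOG00000005195, took 4.56% to 11.0% of them, against 8818241 to 13327037 reads and 2.65% to 3.71% in female normoxia cord. These differences run with the exposure contrast in the female cord, and their part in it was not tested. Aif1 also followed the share of that gene between libraries of a cord group. The order of libraries was the same in female normoxia cord, from 2.65% with Aif1 at 247 CPM to 3.71% with 419 CPM. It was also the same in male hypoxia cord, from 3.28% with 365 CPM to 5.25% with 592 CPM. In female hypoxia cord and male normoxia cord the orders agreed in part.

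All 4 genes were detected in all 40 libraries. Selection on CD11b makes this likely, and it does not tell microglia from other myeloid cells. Csf1r ranged from 2994 to 11739 CPM, with a median of 9563 CPM. Its highest level was 3.92 times its lowest over all 40 libraries, and the same quotient was 2.96 for Ptprc, 4.33 for Itgam and 6.13 for Aif1. Leaving out female hypoxia medulla replicate 3, the quotient was 1.52 for Csf1r, 1.80 for Ptprc, 1.91 for Itgam and 4.55 for Aif1. By this measure Aif1 varied most between libraries with and without that library, from 193 to 1185 CPM with a median of 519.6 CPM. Itgam ranged from 486 to 2104 CPM and Ptprc from 270.2 to 799 CPM.

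Among the 8 groups, mean Aif1 was highest in female hypoxia cord at 612 ± 176 CPM (SD, n = 5), and lowest in female normoxia cord at 341 ± 70.3 CPM (SD, n = 5). The other 6 groups lay between them, at 572 ± 94.5 CPM in male normoxia cord, 547 ± 67.9 CPM in male normoxia medulla, 546 ± 389 CPM in female hypoxia medulla (387 ± 178 CPM over 4 libraries without replicate 3), 541 ± 120.5 CPM in female normoxia medulla, 535 ± 114 CPM in male hypoxia medulla and 454 ± 91.5 CPM in male hypoxia cord. Ptprc ran in the opposite order at both ends. Its highest mean was 711 ± 61.2 CPM in female normoxia cord and its lowest was 508 ± 37.0 CPM in female hypoxia cord, with the other groups between 557 ± 186 CPM in female hypoxia medulla and 662 ± 34.7 CPM in male hypoxia cord. For all 4 genes, every 2 groups next to each other in the order of means overlapped in their single libraries.

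**Figure D1:**
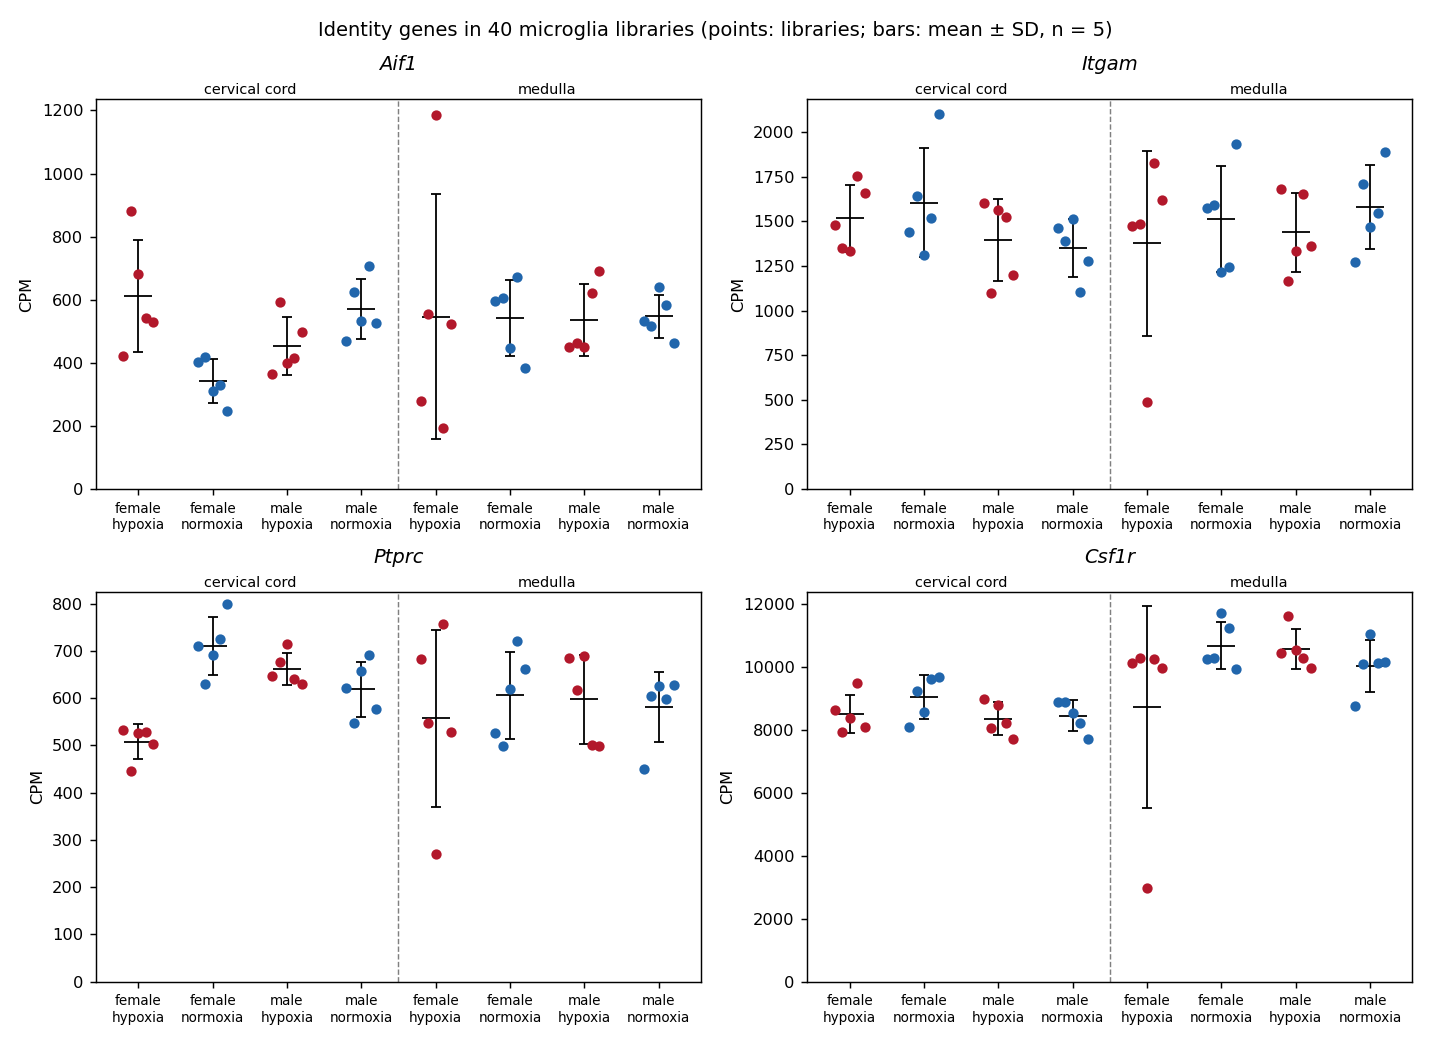
CPM of each gene (vertical axes, starting at 0) in the 8 groups, red for hypoxia and blue for normoxia, with a point for each library and the mean ± SD of 5. In the cervical cord of females the hypoxia points of Aif1 sit above the normoxia points and those of Ptprc below them, and female hypoxia medulla replicate 3 is the low point for Itgam, Ptprc and Csf1r.

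Aif1 was higher in the cord microglia of hypoxia-exposed females. Its levels in the 5 female hypoxia cord libraries were 423, 880.3, 683, 542 and 531 CPM, against 401, 419, 309, 330.2 and 247 CPM in female normoxia cord. Every hypoxia library lay above every normoxia library, although the lowest of the hypoxia group, at 423 CPM, was close to the highest of the normoxia group, at 419 CPM. The log2 fold change of hypoxia over normoxia was 1.01 (SE 0.20), a 2.02-fold rise, with an adjusted p of 0.000743 in edgeR's quasi-likelihood test with Benjamini-Hochberg adjustment over 13593 genes. Fold changes from edgeR use TMM factors, a scaling between libraries that the CPM do not use, so they differ from ratios of mean CPM. In this comparison 32.8% of all genes tested were called at an adjusted p under 0.05, and 18.2% of all genes were called as higher. Of the identity genes, 2 of 4 were called, so that the set's count is to be read against a wide background.

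Ptprc moved the other way in the same libraries. It measured 533, 445, 527, 529 and 503 CPM in female hypoxia cord, against 711, 629, 691, 726 and 799 CPM in female normoxia cord. The highest hypoxia library was below the lowest normoxia library. Ptprc fell by 0.34 on the log2 scale (SE 0.08, adjusted p = 0.00357, edgeR), which left 0.790 times the normoxia level with TMM factors. Mean CPM, without these factors, were 508 under hypoxia and 711 under normoxia. The call was lost when all 40 libraries shared the spread (adjusted p = 0.0633). Of all genes tested, 14.6% were called as lower, and 15.5% had hypoxia libraries that all lay below the normoxia libraries in CPM, against 7.10% with all of them above. The ratio of Aif1 to Ptprc reads within a library, which does not depend on how libraries are scaled to each other, was 0.793, 1.98, 1.29, 1.02 and 1.06 in female hypoxia cord. It was 0.564, 0.666, 0.448, 0.455 and 0.309 in female normoxia cord. The groups did not overlap, which follows from the CPM of the 2 genes given above and adds no separate support. Aif1 to Itgam (0.285 or more under hypoxia, 0.279 or less under normoxia) also did not overlap. Neither did Ptprc to Csf1r (0.0629 or less under hypoxia, 0.0680 or more under normoxia). Both ratios hold a gene, Aif1 or Ptprc, that already did not overlap alone, so they too are not separate support. The share of gene pairs whose ratios separate these groups was not computed. The remaining ratios overlapped. In bulk libraries such as these, fewer cells of a type and less RNA per cell cannot be told apart.

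The other surface receptors of the set did not pass the test in the female cord. Itgam measured 1482, 1351, 1336, 1756 and 1660 CPM under hypoxia, against 1440.3, 1644, 1313, 1521 and 2104 CPM under normoxia. Its log2 fold change was 0.06 (95% interval -0.20 to 0.33, adjusted p = 0.75, edgeR). Csf1r measured 8633, 7958, 8387, 9500 and 8108 CPM under hypoxia, against 8112, 9251, 8571, 9626 and 9703 CPM under normoxia. Its log2 fold change was also 0.06 (95% interval -0.13 to 0.25, adjusted p = 0.664, edgeR). The groups overlapped for both genes, and the sign of both differences turned to -0.08 for Itgam and -0.09 for Csf1r when libraries were scaled by their totals alone, without the TMM factors, a change that moved the median over all genes by -0.15. With the TMM factors, the median log2 fold change was 0.06 over the 4 identity genes and -0.01 over all genes tested.

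**Figure D2:**
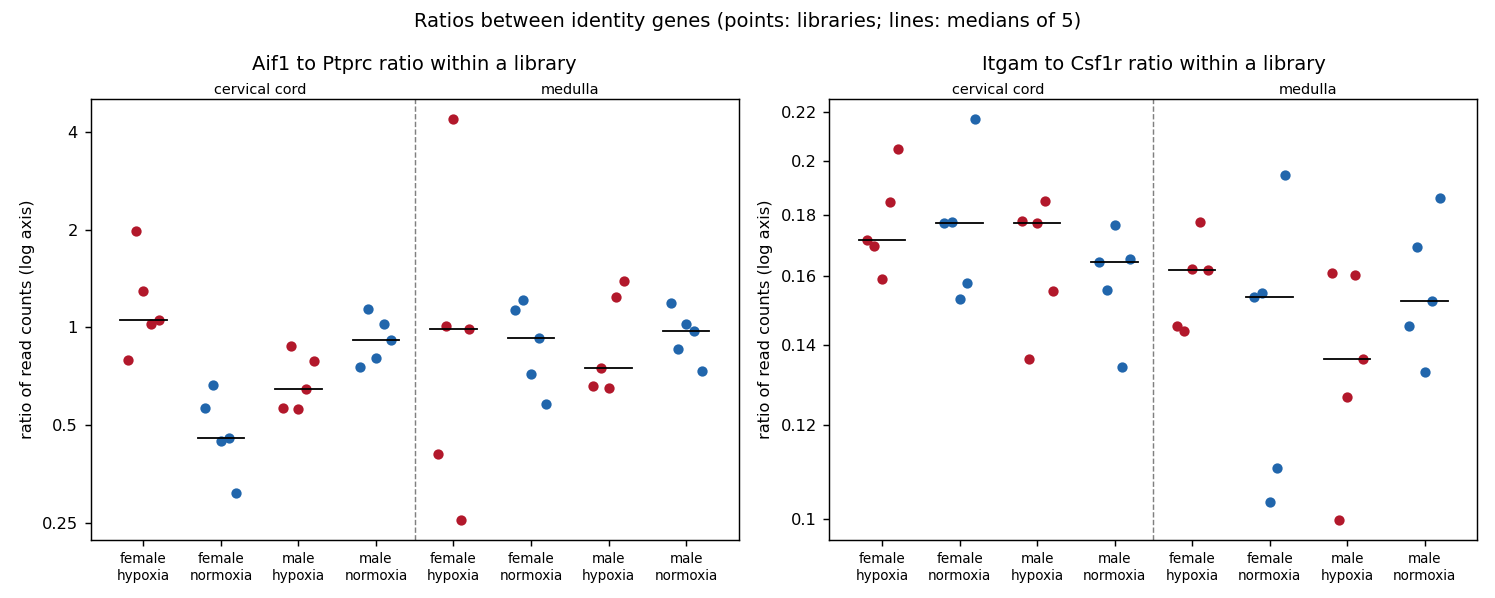
Ratio of reads between 2 genes within a library (log axes), Aif1 to Ptprc on the left and Itgam to Csf1r on the right, for the 8 groups, with a point for each library and a line at the median of 5. The median Aif1 to Ptprc ratio is 1.06 in female hypoxia cord and 0.455 in female normoxia cord. The 2 groups do not overlap, as follows from the CPM of each gene, while for Itgam to Csf1r they overlap.

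In males the cord showed no called change, in the identity genes or in any of the 13593 genes tested, 0% of which passed an adjusted p of 0.05 in edgeR and 6.19% an unadjusted p of 0.05. DESeq2 called 1 gene (0.00736%), which was not an identity gene, and limma voom called 0. Aif1 measured 365, 592, 399.5, 415 and 498 CPM in male hypoxia cord, against 468, 624, 531, 708 and 527 CPM in male normoxia cord. The log2 fold change was -0.35 (SE 0.20, unadjusted p = 0.0922, adjusted p = 0.764, edgeR), and the groups overlapped. The log2 fold changes of Itgam at 0.04, Ptprc at 0.08 and Csf1r at -0.03 were each no larger than about their standard errors of 0.13, 0.08 and 0.10. Over the same libraries Itgam spanned 1101 to 1603 CPM under hypoxia, against 1103 to 1511 CPM under normoxia. Ptprc spanned 630.3 to 715 CPM under hypoxia, against 547 to 692 CPM under normoxia, and Csf1r 7727 to 9001 CPM, against 7727 to 8907 CPM. The male groups overlapped for all 4 genes.

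The exposure effect of 2 genes differed between the sexes in the cord by a test of the difference itself. The female change of Aif1 exceeded the male change by 1.36 on the log2 scale (SE 0.28, adjusted p = 0.00235, edgeR). For Ptprc the difference was -0.42 (SE 0.12, adjusted p = 0.0127). The Ptprc call was lost when all 40 libraries shared the spread (adjusted p = 0.118). The same test called 23.2% of all genes, and it did not call Itgam at 0.02 (SE 0.19, adjusted p = 0.937) or Csf1r at 0.09 (SE 0.14, adjusted p = 0.663).

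**Figure D3:**
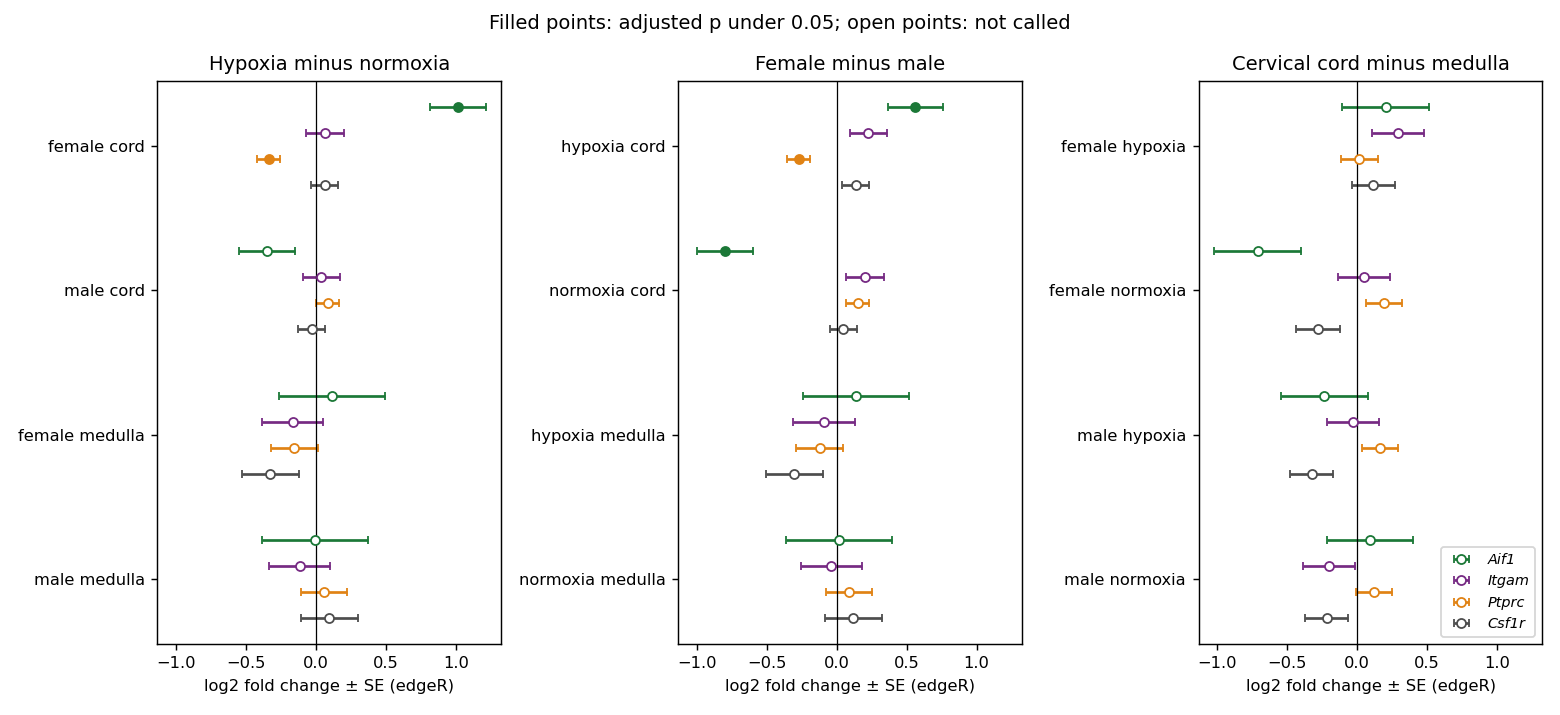
Log2 fold changes (horizontal axes, ± SE, edgeR) of the 4 genes for hypoxia minus normoxia, female minus male, and cervical cord minus medulla, with filled points where the adjusted p was under 0.05. The filled points are Aif1 at 1.01 and Ptprc at -0.34 in the female cord, and, between the sexes in the cord, Aif1 at 0.56 and Ptprc at -0.27 under hypoxia and Aif1 at -0.80 under normoxia.

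Between the sexes, Aif1 stood on opposite sides in the cord of the 2 exposures. Under normoxia the female level was below the male level, with every female library (247 to 419 CPM, listed above) below every male library (468 to 708 CPM). The log2 difference, female minus male, was -0.80 (SE 0.20, adjusted p = 0.0241, edgeR), where 6.56% of all genes were called and 3.30% had all female libraries below all male ones. Aif1 was 1 of 4 identity genes called there. This call was lost when any of 5 libraries was left out, female normoxia cord replicates 3, 4 and 5 and male normoxia cord replicates 2 and 4, with adjusted p up to 0.0781, and it was lost with an adjusted p of 0.203 when all 40 libraries shared the spread.

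Under hypoxia the female cord had more Aif1 and less Ptprc than the male cord, 2 of 4 genes called against 19.6% of all genes. Ptprc was 445 to 533 CPM in females, against 630.3 to 715 CPM in males, with no overlap, a pattern with all females lower that 7.80% of genes showed. Its log2 difference was -0.27 (SE 0.08, adjusted p = 0.0256, edgeR), which passed in 15 of 18 alternative settings. It was no longer called without female hypoxia cord replicate 2 (adjusted p = 0.0641), with no filter on low counts (adjusted p = 0.0867) or when all 40 libraries shared the spread (adjusted p = 0.18). The Aif1 difference of 0.56 (SE 0.20, adjusted p = 0.0499) sat at the threshold, its groups overlapped, and it passed in 5 of 18 alternative settings. Csf1r and Itgam were not called between the sexes under either exposure, with log2 differences of 0.05 to 0.23.

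In the medulla no identity gene was called for exposure in either sex, and 0% of the 14151 genes tested there were called in either sex, with 15.4% in females and 0.862% in males at an unadjusted p under 0.05 in edgeR. In females DESeq2 called 0.424% and limma voom 0.00707%, in males neither called any gene, and no identity gene was among these calls. When all 40 libraries shared the spread, edgeR called 3.46% of genes in females, or 513 of 14832, and 0 in males, again without an identity gene. Aif1 in female hypoxia medulla spread from 193 to 1185 CPM over 5 libraries, at 279, 554, 1185, 193 and 522 CPM. The female normoxia medulla libraries measured 597, 607, 446, 672 and 385 CPM. The hypoxia group thus held both the lowest and the highest Aif1 level of all 40 libraries, and its log2 fold change against normoxia was 0.11 (SE 0.38, adjusted p = 0.899, edgeR). Without replicate 3 it was -0.51 (SE 0.28, adjusted p = 0.639), a turn of direction with neither value called.

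Csf1r in female hypoxia medulla was 10141, 10303, 2994, 10270 and 9987 CPM, against 10249, 10292, 11739, 11240 and 9938 CPM in female normoxia medulla. Of the hypoxia libraries, 4 lay within the range of the normoxia group and replicate 3 lay far below it. The log2 fold change was -0.33 (SE 0.20, adjusted p = 0.434, edgeR) and -0.12 without that library. Ptprc was 684, 547, 270.2, 757 and 528 CPM in female hypoxia medulla, against 527, 499.9, 619, 722 and 663 CPM in female normoxia medulla. Itgam was 1473, 1484, 486, 1825 and 1618 CPM under hypoxia, against 1576, 1593, 1214, 1242 and 1934 CPM under normoxia. Both genes overlapped between the groups, with log2 fold changes of -0.15 for Ptprc (SE 0.17, adjusted p = 0.66, edgeR) and -0.17 for Itgam (SE 0.22, adjusted p = 0.721), which were 0.00018 and 0.046 without replicate 3. In males the medulla changes of the 4 genes lay between -0.12 and 0.10 on the log2 scale, all with an adjusted p of 1. Aif1 spanned 449.7 to 690.4 CPM in male hypoxia medulla, against 461 to 641 CPM in male normoxia medulla, and Csf1r 9990 to 11642 CPM, against 8765 to 11050 CPM. Ptprc spanned 498 to 689.7 CPM under hypoxia, against 449 to 628 CPM under normoxia, and Itgam 1163 to 1680 CPM, against 1274 to 1890 CPM. The male medulla groups overlapped for all 4 genes. Sex differences in the medulla called none of the 4 genes under hypoxia, where 0.0777% of genes were called, or under normoxia, where 0.0707% were, and the sex by exposure test called 0% in edgeR, with 6.21% at an unadjusted p under 0.05, 0.0141% called by DESeq2 and 0.00707% by limma voom.

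Csf1r was lower in the cord than in the medulla of 18 of 20 animals, although the difference was not called with all libraries in the fit. The 20 cord libraries averaged 8599 ± 603 CPM (SD) and the 20 medulla libraries 10014 ± 1776 CPM, or 10383 ± 669 CPM over 19 without female hypoxia medulla replicate 3. The log2 difference, cord minus medulla averaged over the 4 groups, was -0.18 (SE 0.08) with an adjusted p of 0.0932 in edgeR, where 24.4% of 14832 genes were called and none of the 4 identity genes was, Csf1r alone having an unadjusted p under 0.05, at 0.0276. Without female hypoxia medulla replicate 3 it was -0.22 with an adjusted p of 0.000237, against a background of 29.9%, and with each animal as a block it was -0.16 with an adjusted p of 0.175. With all libraries DESeq2 called it (adjusted p = 0.0322), so that the edgeR call turned on 1 library and on the tool. Within groups, 0 of 4 genes were called between the regions, against 26.2% of genes in female hypoxia, 5.87% in female normoxia, 7.76% in male hypoxia and 6.55% in male normoxia. Csf1r differed by -0.28 in female normoxia, -0.33 in male hypoxia and -0.22 in male normoxia animals, and by 0.12 in female hypoxia animals, a value that was -0.09 without the shallow library. Without that library Csf1r was called in female normoxia (-0.26, adjusted p = 0.0458, where 1812 of 15047 genes were called) and in male hypoxia (-0.32, adjusted p = 0.0142, background 12.3%), and not in male normoxia (-0.20, adjusted p = 0.125). Cord and medulla libraries did not overlap in CPM for Csf1r in female normoxia and in male hypoxia animals, as was true with cord lower for 3.96% and 4.75% of genes.

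Aif1 in the cord was above its medulla level in 4 of 5 female hypoxia animals and below it in 5 of 5 female normoxia animals, and the test of this difference depended on the fit. In female hypoxia animal 5 the levels were close, at 531 CPM in cord and 522 CPM in medulla. Animal 3, whose medulla library is the shallow one, went the other way, at 683 CPM in cord and 1185 CPM in medulla. In female hypoxia animals cord minus medulla was 0.20 on the log2 scale (SE 0.31, adjusted p = 0.67, edgeR), or 0.83 (adjusted p = 0.0198, background 21.3%) without replicate 3 of the medulla. In female normoxia animals it was -0.71 (SE 0.31, adjusted p = 0.152). The change of the regional difference with exposure was 0.91 (SE 0.44, adjusted p = 0.133), where 20.8% of genes were called. It was 1.22 (adjusted p = 0.0127, background 21.1%) with each animal as a block, and 1.52 (adjusted p = 0.00299, background 21.6%) without that library. In males the same change was -0.33 (SE 0.44, adjusted p = 1), where edgeR, DESeq2 and limma voom each called 0% of genes and 1.88% had an unadjusted p under 0.05 in edgeR.

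Ptprc and Itgam showed no called regional difference. Over the 4 groups Ptprc differed by 0.12 (SE 0.06, adjusted p = 0.181, edgeR) and Itgam by 0.03 (SE 0.09, adjusted p = 0.875), values that were 0.098 and -0.0095 without female hypoxia medulla replicate 3. Ptprc averaged 625 ± 89.4 CPM in cord and 586 ± 112 CPM in medulla (SD, n = 20 each). Itgam averaged 1467 ± 232.5 CPM in cord and 1477 ± 321 CPM in medulla (SD, n = 20 each). Over 19 medulla libraries without female hypoxia medulla replicate 3, the means were 602 ± 86.2 CPM for Ptprc and 1529 ± 226 CPM for Itgam.

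**Figure D4:**
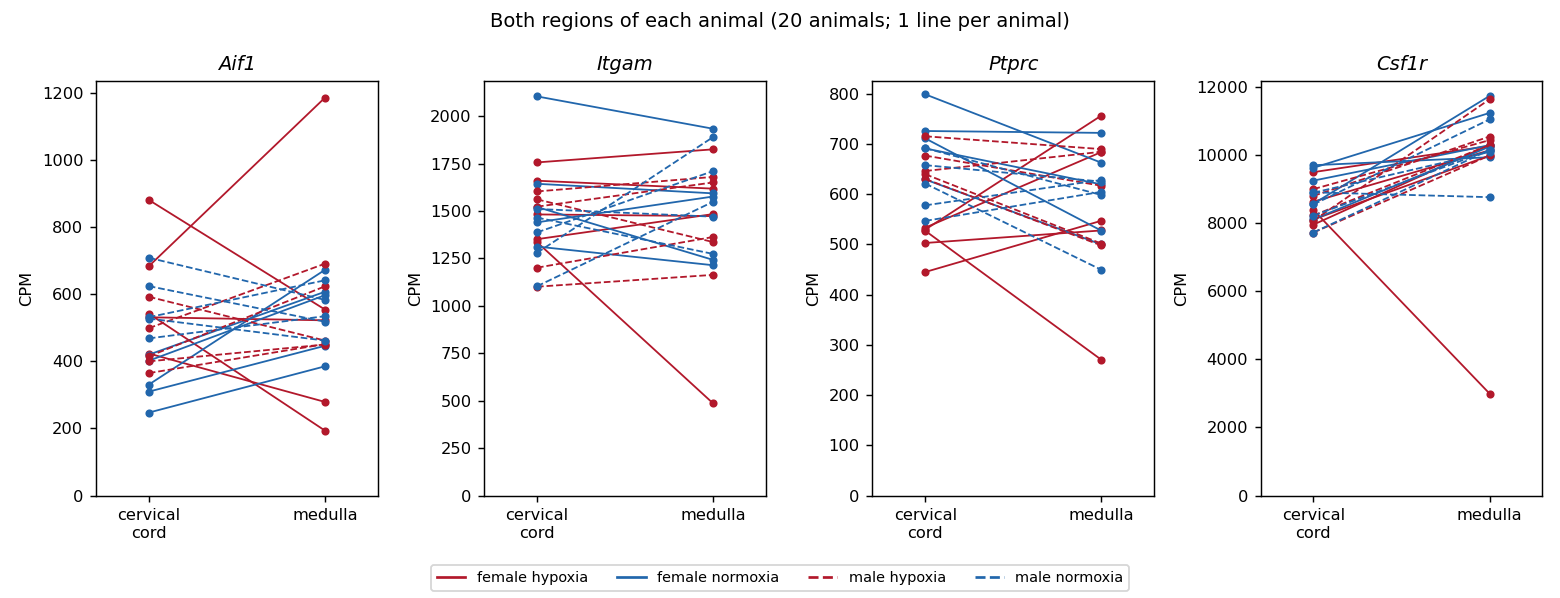
CPM of each gene (vertical axes, starting at 0) in the cervical cord and the medulla of the 20 animals, with 1 line for each animal, red for hypoxia and blue for normoxia, solid for females and dashed for males. Csf1r lines run upward to the medulla in 18 animals, and Aif1 lines of female normoxia animals all run upward while 4 of 5 lines of female hypoxia animals run downward, that of animal 5 only slightly.

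Between animals of the same group, the genes did not vary as 1 block. Deviations of log2 CPM from the group mean were compared over 20 libraries of a region, with 12 pairs of genes and regions tested in 1 family by permutation within groups. In the cord, Itgam and Csf1r deviated together, with a Pearson r of 0.67 (permutation p = 0.0046, adjusted p = 0.0276). The Spearman rho was 0.753 (permutation p = 0.00089, adjusted p = 0.0107), and r was 0.65 without the 2 libraries farthest from the median of Itgam. The adjusted p of the r of 0.67 was 0.0552 when the family was recomputed without female hypoxia medulla replicate 3. That library is not a cord library but changes the other members of the family. In the medulla, Aif1 and Ptprc deviated in opposite directions, with r of -0.78 (permutation p = 0.00223, adjusted p = 0.0268) and rho of -0.588 (permutation p = 0.0228, adjusted p = 0.0912). That r was -0.455 without the 2 libraries farthest from the median of Aif1 and -0.54 (adjusted p = 0.0901) without replicate 3 of the female hypoxia group alone, so that its size rests on those libraries.

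The other 10 pairs did not pass. In the cord, Aif1 and Itgam had an r of -0.52 (permutation p = 0.0187, adjusted p = 0.0748). Without female hypoxia medulla replicate 3, the medulla r of Itgam with Csf1r was -0.33, against 0.74 with it, and that of Aif1 with Csf1r was 0.41 without it, against -0.61 with it. Between the cord and the medulla of the same animal, r was 0.47 for Aif1 and 0.48 for Itgam, with the lowest adjusted p of the 4 genes at 0.0507 for Itgam by permutation, 0.15 for Ptprc and -0.07 for Csf1r. Over the 19 animals left without that library, r was 0.50 for Aif1, 0.54 for Itgam, 0.42 for Ptprc and -0.36 for Csf1r, with adjusted p of 0.166 to 0.174 by permutation.

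**Figure D5:**
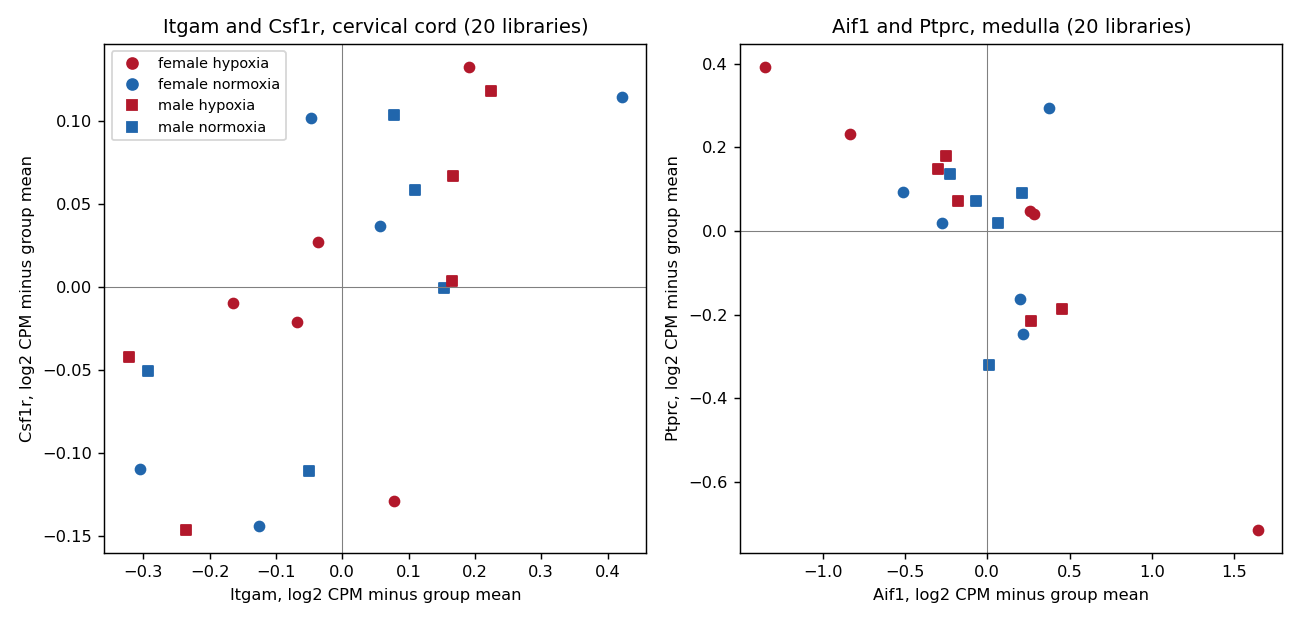
Deviations from the group mean in log2 CPM, Csf1r (vertical) against Itgam (horizontal) in 20 cord libraries on the left, and Ptprc (vertical) against Aif1 (horizontal) in 20 medulla libraries on the right, red for hypoxia, blue for normoxia, circles for females and squares for males. The cord points rise together with an r of 0.67, and in the medulla panel the r of -0.78 includes female hypoxia medulla replicate 3 at the lower right.

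Over all 40 libraries, the gene whose log2 CPM followed each identity gene most closely among 14828 others was ENSRNOG00000013874 for Aif1 (r = 0.96, and 0.95 for deviations from group means), ENSRNOG00000008554 for Csf1r (r = 0.94 on both measures), ENSRNOG00000046741 for Ptprc (r = 0.88 and 0.84) and ENSRNOG00000019179 for Itgam (r = 0.81 and 0.80). These r values are descriptions over libraries that share totals and the shallow library. Over the 39 libraries without it, r with the same IDs was 0.96 for Aif1, 0.82 for Csf1r, 0.79 for Ptprc and 0.57 for Itgam. Over all 40, Csf1r had an r of 0.66 with Itgam, and Aif1 correlated negatively with the other identity genes, at -0.67 with Ptprc, -0.44 with Itgam and -0.29 with Csf1r. Without the shallow library these values were 0.19 for Csf1r with Itgam, and for Aif1 -0.55 with Ptprc, -0.19 with Itgam and 0.15 with Csf1r.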

How the data were processed

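RNA of CD11b-selected microglia was sequenced in 40 libraries. The authors deposited 1 table of whole-number read counts for 32883 Ensembl gene IDs, and per the submitters' processing notes TopHat2 2.1, HTSeq, edgeR and the rn6 build were used. The strand setting and annotation version were not stated in the sources at hand. All rows named a gene, 9630 IDs had no read in any library, and no 2 libraries were identical (the chi-square per degree of freedom between replicates was at least 10.9).

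Counts were tested with edgeR 4.0.16 (R 4.3.3): TMM factors, filterByExpr with a minimum count of 10, a means model by group and the quasi-likelihood F test, with Benjamini-Hochberg adjustment over all genes tested and a threshold of 0.05. Comparisons within a region used its 20 libraries, and comparisons between regions used all 40. The main fits between regions treated the 2 libraries of an animal as independent. The fit with each animal as a block was an alternative. Each standard error was taken from the log2 fold change and its F statistic. CPM are counts scaled to deposited totals of 1000000 reads. Correlations used log2 CPM with a prior count of 2 and 100000 permutations within groups. The self-test on simulated counts used the same functions. Alternatives were RLE factors, no filter, DESeq2 1.42.0, limma 3.58.1 (voom with quality weights), other sets of libraries, replicate blocks and leaving out libraries. Scaling by deposited totals without TMM, and likeness to other genes without the shallowest library, were chosen after seeing the data.

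The 2 regions of an animal are paired by the labels, and over all genes their log2 CPM, less the group means, correlated at r of 0.07 to 0.42 (median 0.19, positive in 20 of 20 animals). The labels name no batch. Replicates are different animals, with 2 animals from a litter. The 4 genes and the marker lists were chosen with earlier results of these data known. By rule the 4 genes, the most abundant gene and the 1 ID most like each of the 4 are named. A list of markers of other cell types was not run, since no symbol could be matched to the IDs. Totals were 6061346 to 24039411 reads, the lowest count of any of the 4 genes was 1638 reads, and intervals cover the spread between libraries only.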

Additional observations from a re-analysis of the deposited data

Results flagged for a closer look

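Each of the 4 genes was examined in each of the 8 groups of 5 libraries for a single library far from the others. Of these 32 checks 3 held one, where chance gives about 1 in 20 if checks are independent. They are not, since the genes share libraries and the flags of Csf1r and Itgam fell on the same library. The count was therefore not set against chance. Csf1r was 2994 CPM in female hypoxia medulla replicate 3, where the nearest of the group was 9987 CPM. Itgam was 486 CPM in the same library, where the nearest was 1473 CPM. Ptprc was 449 CPM in male normoxia medulla replicate 1, where the nearest was 598 CPM. The exposure effect in the cord differed between the sexes by a test of the difference for Aif1, at 1.36 on the log2 scale, and for Ptprc, at -0.42.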

How the results depend on the processing

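All values here are log2 differences unless called counts of genes or r. Aif1 was called in the female cord in 18 of 18 alternatives (0.80 to 1.13, adjusted p 8.19e-06 to 0.0191), and its sex by exposure difference in 27 of 27 (1.15 to 1.49, adjusted p 5.05e-05 to 0.0429). Ptprc was called in 17 of 18 and 26 of 27. With all 40 libraries sharing the spread, Ptprc was -0.33 in the female cord and -0.43 for the sex by exposure difference, Ptprc -0.27 and Aif1 0.56 for female minus male under hypoxia and Aif1 -0.79 under normoxia, none of them called, so that the counts of called identity genes were 1, 1, 0 and 0. For female minus male under hypoxia in the cord, 1 gene in place of 2 was called with RLE factors (Aif1 0.55), voom (Aif1 0.44), the deposited totals (Aif1 0.43), the 2 groups alone (Aif1 0.53) and no filter (Ptprc -0.25). Leaving out libraries there gave 0 to 2 genes, with Aif1 at 0.35 to 0.68 and Ptprc at -0.31 to -0.26. Under normoxia it gave 0 to 1 gene, with Aif1 at -0.90 to -0.72. Over all genes these fits called 1477 to 3139 under hypoxia and 136 to 1227 under normoxia. The shared spread called 20.8% of all genes for female exposure and 10.5% for the sex by exposure difference. For sex it called 6.69% under hypoxia and 0.823% under normoxia, and voom called 19.7% under hypoxia, where the main fit called 19.6%. For RLE factors, the deposited totals, the 2 groups alone and no filter the share of all genes is not given here. The counts with these settings are therefore not results about the set.

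Between regions, where 0 genes were called with all libraries, DESeq2 called 1 gene over the mean of the groups (Csf1r, adjusted p = 0.0322), and voom called 1 there (adjusted p = 0.000156), 2 in female normoxia, 1 in male hypoxia and 1 for the female region by exposure difference. The 2 groups alone gave 1 gene in female normoxia. Leaving out libraries gave 0 to 1 gene in female hypoxia, female normoxia, male hypoxia, the mean and the female region by exposure difference. Over all genes these fits called 2797 to 4853, 291 to 1812, 386 to 1849, 3247 to 4502 and 2236 to 4082, in that order. For DESeq2, voom and the 2 groups alone the share of all genes is not given here. Their counts are therefore not results about the set.

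Whether the replicate numbers pair libraries of different groups of a region was not settled, and the main fits did not use them. Same-numbered male and female cord libraries had a median r, over all genes less the group means, of 0.14 under normoxia. Under hypoxia it was 0.16, and across exposures the medians were -0.01 to 0.03. In the medulla these medians were 0.33, -0.07 and -0.28 to 0.21. The known pairing of the 2 regions of an animal gave r above 0.1 in 14 of 20 animals. With the number as a replicate block, counts of called identity genes within a region did not change, and Aif1 turned to -0.067 (female) and 0.019 (male) for exposure in the medulla, -0.033 for female minus male under hypoxia and -0.086 for their difference. With the animal as a block, 1 gene was called for the female region by exposure difference (Aif1) and no other count changed.

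Other reversals were of values that were not called, and their cause was not tested. With the deposited totals, they were Itgam -0.081 and Csf1r -0.088 in the female cord, Itgam -0.13 and Csf1r -0.072 for the cord sex by exposure difference, Aif1 -0.016 for female minus male in normoxia medulla, Ptprc -0.14 and Csf1r -0.037 for regions in female hypoxia, Itgam -0.011 for the regional mean and an r of 0.025 for Csf1r across regions. On that scale, 2 more r values passed, -0.67 for Aif1 with Itgam in the cord and 0.83 for Ptprc with Csf1r in the medulla. Without a filter, Aif1 was -0.0074 for female minus male in normoxia medulla and Itgam 0.0025 for the medulla difference. With voom, medulla values were Aif1 -0.39 and Itgam 0.018 for female exposure, Aif1 -0.24 and Itgam 0.050 for sex under hypoxia, Aif1 -0.044 and Ptprc -0.0012 under normoxia, and Aif1 -0.20 and Itgam 0.15 for the difference. For regions in female hypoxia, Ptprc was -0.017 with RLE factors, -0.018 with DESeq2 and -0.068 with voom, and Csf1r -0.059 with voom, which also gave Itgam 0.023 in male hypoxia.

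Ranges over left-out libraries that crossed 0 in the cord were -0.0076 to 0.18 for Itgam (female exposure), -0.017 to 0.10 for Itgam and -0.050 to 0.0042 for Csf1r (male exposure), and -0.053 to 0.14 for Itgam (sex by exposure). In the medulla they were -0.51 to 0.35 for Aif1, -0.26 to 0.046 for Itgam and -0.26 to 0.00018 for Ptprc (female exposure), and -0.14 to 0.060 for Aif1 and -0.017 to 0.11 for Ptprc (male exposure). For sex in the medulla they were -0.48 to 0.38 for Aif1, -0.18 to 0.12 for Itgam and -0.22 to 0.035 for Ptprc under hypoxia, -0.078 to 0.13 for Aif1 and -0.13 to 0.040 for Itgam under normoxia, and -0.49 to 0.37 for Aif1 and -0.14 to 0.18 for Itgam for the difference. Between regions they were -0.070 to 0.83 for Aif1, -0.087 to 0.19 for Csf1r and -0.13 to 0.094 for Ptprc (female hypoxia), -0.072 to 0.12 for Itgam (female normoxia), -0.086 to 0.045 for Itgam (male hypoxia), -0.23 to 0.0070 for Aif1 and -0.0095 to 0.050 for Itgam (mean), and -0.0059 to 0.12 for Ptprc (male region by exposure). Without female hypoxia medulla replicate 3, r in the medulla was 0.41 for Aif1 with Csf1r, -0.54 for Aif1 with Ptprc, -0.33 for Itgam with Csf1r and -0.032 for Itgam with Ptprc, and in the cord 0.67 for Itgam with Csf1r with an adjusted p of 0.0552.

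Limits are the small groups, the lack of symbols and marker lists, 1 shallow library that turns the sign of several medulla values that were not called and decides regional calls of Csf1r and Aif1, and relative levels that show unequal change only. The lowest count of an identity gene in any library was 1638 reads, for Ptprc in the shallowest library. The part of depth in the spread between libraries was not tested.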
